A study of Drosophila melanogaster with 6 samples.

Results

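The liprins and 6 further genes of the presynaptic active zone were followed transcript by transcript in brains of Drosophila melanogaster males whose blood–brain barrier (BBB) had been feminized. The set holds Liprin-alpha, Liprin-beta, Liprin-gamma, brp, Rim, cac, unc-13, Rab3-GEF and Lar. All annotated transcripts of these 9 genes in the count table were taken, which gave 71 of 28071 transcripts and 9 of 13453 genes. The set was chosen by earlier results of these data, namely the counts of transcripts of Liprin-gamma, brp, Rab3-GEF, cac and unc-13 in feminized against control males, which stand on the study's list of changed transcripts. Values of the 9 genes in that comparison are therefore given as a description with no p-values, and the number of their transcripts past a threshold is given beside that of the whole table and supports nothing.

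Whole brains were dissected together with their barrier, and their poly-A RNA was sequenced for 3 genotypes of males with 2 biological replicates each. In SPG-GAL4/UAS-TraF males, the SPG-GAL4 driver (also known as moody-Gal4) expressed the female form of the splicing regulator Transformer (TraF) in the subperineurial glia, glia that seal the brain with septate junctions. The controls had either the driver without the transgene (+/SPG-GAL4) or the transgene without the driver (+/TraF). All 3 genotypes shared the w1118 background, and each library pooled many brains, so no value belongs to a single fly. A whole brain mixes neurons and glia, so fewer cells of a type and less RNA per cell cannot be told apart.

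The estimated counts summed to between 32839081 and 37608924 per library. Neuronal markers summed to 238400 and 236410 normalized counts in SPG-GAL4/UAS-TraF brains and to 201138 to 261953 in the controls, and the markers of subperineurial glia to 18105 and 18937 against 16182 to 20113. Normalized counts here stand for the authors' estimated counts after TMM scaling of each library to a common size. The summed markers were 266981 and 268412 against 212632 to 261747 for all glia, 17950 and 18984 against 15532 to 19083 for perineurial glia and sheath, and 41835 and 40348 against 33064 to 43728 for fat body. They were 5871 and 8676 against 5647 to 10150 for retina, 2434 and 3635 against 1899 to 4266 for hemocytes, 462.1 and 287.6 against 224.3 to 521.3 for muscle, and 77.7 and 69.2 against 79.6 to 198.2 for testis. No gene of these lists was at 0 in all 6 libraries. The fat body sum was almost all apolpp, with 41399 and 39750 normalized counts in SPG-GAL4/UAS-TraF brains against 32477 to 43315 in the controls. In both SPG-GAL4/UAS-TraF libraries the glial sum was above and the testis sum below that of every control. Single markers did not all share this order. Among the glial markers only Gs2 was above every control in both libraries, while repo, nrv2 and Eaat1 overlapped with the controls. Among the testis markers only Mst87F was below every control, while dj and betaTub85D overlapped. The part of the glial and testis sums in the results below was not tested. One control library, +/SPG-GAL4 replicate 1, stood apart by gene length. Its 253 genes with a mean transcript length of 8000 nt or more had a median of 0.39 above the other libraries on the log2 scale, and its 3549 genes under 2000 nt a median of -0.23. In the other 5 libraries the medians of long genes lay between -0.17 and 0.07.

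The active zone is the site of the presynaptic membrane where vesicles fuse. Liprins are scaffold proteins that bind the receptor tyrosine phosphatase Lar and help to place active zone material, Bruchpilot (brp) and Rim build the scaffold around the calcium channel Cacophony (cac), Unc-13 makes vesicles ready to fuse, and Rab3-GEF activates the vesicle GTPase Rab3. In flies, Liprin-gamma has been described as acting against Liprin-alpha and Liprin-beta in synapse formation.

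Liprin-gamma carried the clearest difference between transcripts. The gene lies on chromosome 2R at 22333500–22373109, minus strand (Ensembl annotation of BDGP6.54), and the table holds 5 of its transcripts. RA, RD and RE start at 22373109, while RB and RC start at 22354708. RC and RE contain a 316-nt exon at 22346044–22346359 in which their coding sequence begins, and RA, RB and RD do not contain it. RA and RB join the 62-nt exon at 22346648–22346709 directly to the next coding exon, a junction that the other transcripts do not have. As a result RA and RB encode the same protein of 1023 codons, while RC encodes 1152 and RE 1082 codons. RE also lacks a coding exon of 210 nt at 22342521–22342730. RD ends early, at 22337584, and encodes 852 codons.

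Liprin-gamma-RB had 66.2 and 56.5 normalized counts in SPG-GAL4/UAS-TraF brains. It had 584.5 and 638.6 in +/SPG-GAL4 brains and 656.8 and 751.3 in +/TraF brains. Both feminized libraries were far below every control, and the controls lay close together. The log2 fold change was -3.42 (SE 0.17). Liprin-gamma-RA, which encodes the same protein from the upstream start site, had 24.9 and 89.7 normalized counts against 482.0 and 429.9 in +/SPG-GAL4 and 341.9 and 443.6 in +/TraF brains. Its feminized replicates differed from each other by a larger ratio than any of the controls did. Its log2 fold change of -2.89 (SE 0.53) was -2.22 without SPG-GAL4/UAS-TraF replicate 1 and -4.07 without replicate 2. RA and RB share a junction, but neither holds a nucleotide or splice junction of its own. How their counts were split therefore rests on how shared reads were assigned.

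The 3 other transcripts of Liprin-gamma overlapped between genotypes. Liprin-gamma-RE, the most abundant, had 11117 and 11100 normalized counts in SPG-GAL4/UAS-TraF brains, against 11481 and 9482 in +/SPG-GAL4 and 10534 and 9563 in +/TraF brains. Liprin-gamma-RC had 2323 and 2656, against 2633 and 1594 in +/SPG-GAL4 and 1727 and 1647 in +/TraF brains. The +/SPG-GAL4 replicate 1 value of RC was well above the other 3 controls. For the early-ending Liprin-gamma-RD the counts were 1980 and 1877 against 2364 and 1896 in +/SPG-GAL4 and 1747 and 1809 in +/TraF brains.

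**Figure D1:**
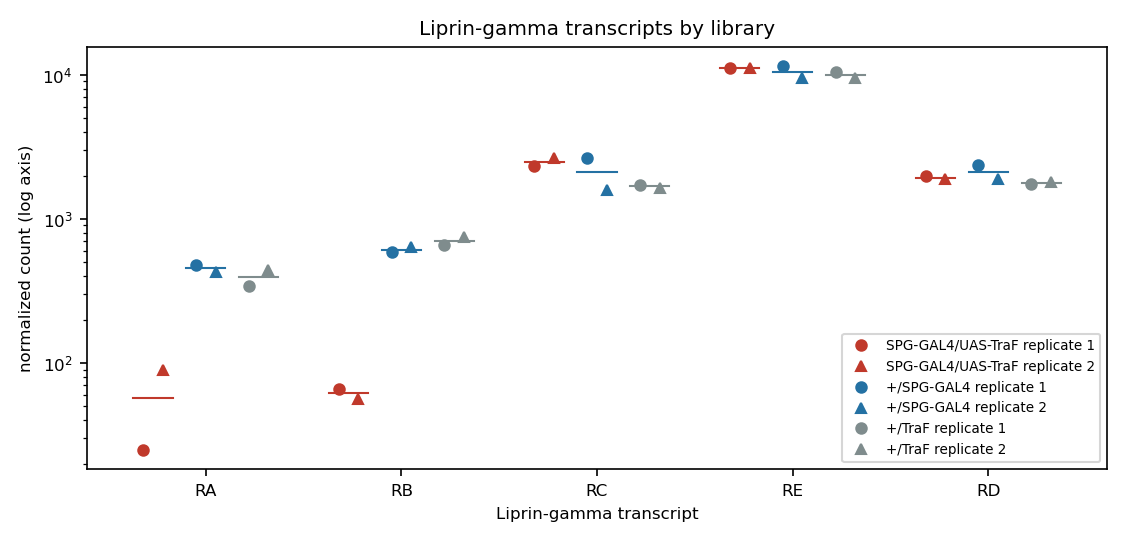
Normalized counts (log axis) of the 5 Liprin-gamma transcripts in each library, with lines at the mean of each genotype. RA and RB of both SPG-GAL4/UAS-TraF libraries lie at 24.9 to 89.7, below all controls at 341.9 to 751.3, and the other transcripts overlap.

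The whole gene did not follow RA and RB, but these were a small part of it. As a pair they had 998.8 to 1195 normalized counts in the controls, so their fall could lower the gene sum only a little. The sum over the 5 transcripts was 15511 and 15779 in SPG-GAL4/UAS-TraF brains, against 17544 and 14040 in +/SPG-GAL4 and 15008 and 14214 in +/TraF brains, with a log2 fold change of 0.04 (SE 0.13). What differed was the share of transcripts with and without the 316-nt exon. Together RA and RB made up 0.673% and 1.05% of the transcripts with the long 3′ end in SPG-GAL4/UAS-TraF brains. In the controls this share was 7.03% and 8.80% (+/SPG-GAL4) and 7.53% and 9.63% (+/TraF). By the counts as split between RA and RB, the difference was seen for both start sites, which are not separate observations of the exon. Among transcripts of the downstream start, those without the exon were 2.77% and 2.08%, against 18.2% and 28.6% in +/SPG-GAL4 and 27.6% and 31.3% in +/TraF brains. For the upstream start (RA among RA and RE) the shares were 0.224% and 0.801%, against 4.03% and 4.34% in +/SPG-GAL4 and 3.14% and 4.43% in +/TraF brains. The use of the start sites themselves was alike, with a mean share of the upstream site of 83.7% in SPG-GAL4/UAS-TraF and 83.3% in control brains.

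The counts of calls in this comparison follow from the values that led to the choice of the genes and are no test of them. Across the table, 3 of 21208 (0.0141%) transcripts passed the threshold of an adjusted p below 0.1 in edgeR's quasi-likelihood test, and of the 64 tested transcripts of the 9 genes 1 passed, Liprin-gamma-RB. The 7 remaining transcripts (brp-RJ, Rim-RT, Rim-RZ, Rab3-GEF-RC, Rab3-GEF-RH, Rab3-GEF-RI and Lar-RD) had no counts in any library. With DESeq2, 280 of 22455 transcripts (1.25%) passed, among them 6 of the 62 transcripts of these genes that it adjusted: Liprin-gamma-RA and -RB, brp-RO, Rab3-GEF-RG, cac-RI and unc-13-RD. In the test of transcript usage, which asks whether the transcripts of a gene change in proportion, 67 of 5109 genes (1.31%) passed, and of the 9 genes Liprin-gamma did. With SPG-GAL4/UAS-TraF replicate 1 or replicate 2 left out, no transcript of the 9 genes passed in edgeR.

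Between the 2 control genotypes no transcript of Liprin-gamma differed past the threshold. The control libraries also entered the comparison by which the genes were chosen, and that choice favours transcripts whose controls lie close together. A lack of difference between the control genotypes is therefore no independent test for the genes chosen in this way. RB gave a log2 fold change of -0.20 (SE 0.15, edgeR adjusted p = 0.807) for +/SPG-GAL4 over +/TraF, and RA one of 0.21 (SE 0.55, edgeR adjusted p = 0.961). The usage test of the gene gave an adjusted p of 1.0 in edgeR.

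The pattern of Liprin-gamma-RB over the 6 libraries was compared with those of 20582 transcripts averaging 10 counts or more, as the root mean square difference of centred log2 values with a pseudocount of 1. Of other genes, CheB53a-RA came nearest (0.24), followed by FER-RD (0.34) and dpy-RX (0.34). CheB53a-RA had 1.0 and 1.0 normalized counts in SPG-GAL4/UAS-TraF brains, against 15.3 and 18.2 in +/SPG-GAL4 and 21.8 and 14.9 in +/TraF brains. FER-RD had 2.9 and 1.9 against 17.4 and 24.9 in +/SPG-GAL4 and 20.8 and 38.7 in +/TraF brains. For dpy-RX the counts were 4.8 and 3.9 against 30.5 and 31.6 in +/SPG-GAL4 and 34.3 and 36.7 in +/TraF brains. All 3 were thus much scarcer than Liprin-gamma-RB.

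Liprin-alpha and Liprin-beta, the partners of Liprin-gamma, kept near-equal levels. Liprin-alpha (2L, 6723903–6732766), the scaffold that binds Lar, summed to 5171 and 5062 normalized counts in SPG-GAL4/UAS-TraF brains, against 5906 and 4512 in +/SPG-GAL4 and 4890 and 4673 in +/TraF brains (log2 fold change 0.03, SE 0.13). Liprin-beta (3L, 13513364–13516276) summed to 1222 and 1195, against 1113 and 1223 in +/SPG-GAL4 and 1250 and 1267 in +/TraF brains (log2 fold change -0.00, SE 0.06). The feminized libraries lay inside or beside the control range in both genes.

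Liprin-alpha-RC, the transcript with the most distal 3′ end, held 59.6% and 56.3% of the counts of its gene in SPG-GAL4/UAS-TraF brains, against 57.4% and 57.8% in +/SPG-GAL4 and 64.6% and 61.7% in +/TraF brains. Liprin-alpha-RD had 689.4 and 651.2 normalized counts, against 959.6 and 640.5 in +/SPG-GAL4 and 583.1 and 626.3 in +/TraF brains. Liprin-alpha-RA has the same exons as RE, and each was given 563.8 and 641.4 normalized counts, against 649.9 and 504.6 in +/SPG-GAL4 and 452.1 and 432.7 in +/TraF brains. Reads of such a pair cannot be assigned to 1 of them. Liprin-beta-RA took 97.1% and 94.2% of its gene in SPG-GAL4/UAS-TraF brains, against 89.4% and 92.5% in +/SPG-GAL4 and 92.4% and 97.1% in +/TraF brains. The rest fell to Liprin-beta-RC, which encodes the same protein of 680 codons.

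Lar, the receptor phosphatase that liprins bind, is on 2L at 19586623–19732069. Its sum was 16605 and 15275 normalized counts in SPG-GAL4/UAS-TraF brains, against 22362 and 15520 in +/SPG-GAL4 and 16073 and 16201 in +/TraF brains (log2 fold change -0.14, SE 0.18). The main transcript, Lar-RI, held 64.0% and 63.9% of these counts, against 63.6% and 64.0% in +/SPG-GAL4 and 64.8% and 68.2% in +/TraF brains. Lar-RB, with the same distal 3′ end, had 820.7 and 556.6 normalized counts, against 1705 and 766.9 in +/SPG-GAL4 and 1937 and 1083 in +/TraF brains, so that the genotypes overlapped. Lar-RG had 2546 and 2493, against 3193 and 2021 in +/SPG-GAL4 and 2121 and 1774 in +/TraF brains.

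Of the scaffold genes, brp (2R, 9503765–9541565) summed to 33499 and 30650 normalized counts in SPG-GAL4/UAS-TraF brains, against 44651 and 28161 in +/SPG-GAL4 and 30722 and 29123 in +/TraF brains (log2 fold change -0.05, SE 0.22). Of its 11 transcripts, brp-RO and brp-RH were below every control in both feminized libraries. brp-RO holds no nucleotide or splice junction of its own, so its count rests on how shared reads were assigned. It had 47.0 and 47.8 normalized counts, against 150.5 and 462.5 in +/SPG-GAL4 and 215.1 and 1158 in +/TraF brains. The feminized libraries were alike and lowest, while the controls spread widely (log2 fold change -3.39, SE 0.99). brp-RO was a small part of its gene, 0.14% and 0.156% against 0.337% to 3.98% in the controls. brp-RH, which encodes the same protein as brp-RD, was scarcer still, with 12.5 and 26.3 normalized counts against 43.6 and 41.2 in +/SPG-GAL4 and 42.6 and 42.7 in +/TraF brains (log2 fold change -1.13, SE 0.46). brp-RQ moved by library and not by genotype. Its 138.1 and 1.0 normalized counts in SPG-GAL4/UAS-TraF brains stood against 174.5 and 0.0 in +/SPG-GAL4 and 1.0 and 0.0 in +/TraF brains.

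The abundant brp transcripts overlapped between genotypes. brp-RR, the most abundant on average, had 9084 and 9183 normalized counts, against 10360 and 8015 in +/SPG-GAL4 and 8338 and 8372 in +/TraF brains. brp-RM held 23.9% and 21.5% of the gene, against 25.0% and 24.4% in +/SPG-GAL4 and 33.1% and 24.8% in +/TraF brains. brp-RD held 22.6% and 23.6%, against 22.4% and 21.7% in +/SPG-GAL4 and 16.2% and 18.0% in +/TraF brains. Its +/TraF libraries were below all the others, but between the controls it did not pass the threshold (log2 fold change 0.65, SE 0.24, edgeR adjusted p = 0.646).

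Rim (3R, 17872748–17916578), the active zone protein that binds Rab3 and calcium channels, summed to 17089 and 16555 normalized counts, against 23399 and 14667 in +/SPG-GAL4 and 16339 and 16207 in +/TraF brains (log2 fold change -0.08, SE 0.20). The counts of Rim-RF lay at 3 levels by genotype. RF holds no nucleotide or splice junction of its own, so its count rests on how shared reads were assigned. It had 916.6 and 1623 normalized counts in SPG-GAL4/UAS-TraF brains, 550.7 and 802.4 in +/SPG-GAL4 and 133.0 and 182.6 in +/TraF brains. No library of one genotype overlapped with another, and the share of all transcripts with such an order was not computed. Rim-RK encodes the same protein of 2798 codons and differs from RF only in an untranslated part, having 1 exon of 1415 nt (17875784–17877198) where RF has 867 nt (17876332–17877198). Rim-RK had 1917 and 1487 normalized counts, against 3699 and 1580 in +/SPG-GAL4 and 2169 and 2539 in +/TraF brains. The sum of both was 2833 and 3110, against 4250 and 2382 in +/SPG-GAL4 and 2302 and 2721 in +/TraF brains, and the genotypes overlapped.

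Between the control genotypes Rim-RF gave a log2 fold change of 2.10 (SE 0.37), with an adjusted p of 0.370 in edgeR and of 4.63e-05 in DESeq2. Over the 14 alternatives the adjusted p of edgeR, limma or DESeq2 ran between 4.63e-05 and 0.907, and the log2 fold change between 1.80 and 2.35. The main transcript, Rim-RR, held 52.7% and 54.7% of the gene in SPG-GAL4/UAS-TraF brains, against 48.5% and 53.2% in +/SPG-GAL4 and 52.0% and 50.5% in +/TraF brains. Rim-RU held 23.6% and 20.4%, against 26.5% and 23.8% in +/SPG-GAL4 and 27.2% and 27.3% in +/TraF brains.

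The pore-forming subunit of the presynaptic calcium channel, cac (X, 11931280–11985087), was the only one of the 9 genes whose sum lay below every control in both SPG-GAL4/UAS-TraF libraries. The share of all gene sums with this order was not computed, so the order alone does not set cac apart. It had 13767 and 12682 normalized counts, against 22273 and 14146 in +/SPG-GAL4 and 15688 and 14961 in +/TraF brains. The lowest control exceeded the higher feminized library by little, and the log2 fold change of -0.35 (SE 0.21) was -0.15 without +/SPG-GAL4 replicate 1. cac-RI, the transcript with the most distal 3′ end, had 2347 and 2724 normalized counts, against 4736 and 3185 in +/SPG-GAL4 and 4308 and 4223 in +/TraF brains (log2 fold change -0.70, SE 0.17). Its share of the gene was 17.1% and 21.5%, against 21.3% and 22.5% in +/SPG-GAL4 and 27.5% and 28.2% in +/TraF brains. The main transcript, cac-RF, had 6472 and 5613, against 10746 and 5826 in +/SPG-GAL4 and 6845 and 6239 in +/TraF brains, and overlapped with the controls.

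The transcripts cac-RG and cac-RH exchanged counts between libraries. cac-RH had 622.3 and 20.5 normalized counts in SPG-GAL4/UAS-TraF brains, against 629.2 and 1.0 in +/SPG-GAL4 and 6.2 and 0.0 in +/TraF brains. cac-RG was low where RH was high, with 11.5 and 381.1, against 14.2 and 559.2 in +/SPG-GAL4 and 510.3 and 296.8 in +/TraF brains. Their sum was 633.8 and 401.6, against 643.4 and 560.1 in +/SPG-GAL4 and 516.5 and 296.8 in +/TraF brains. The 2 libraries with high RH, SPG-GAL4/UAS-TraF replicate 1 and +/SPG-GAL4 replicate 1, were also the 2 with high brp-RQ.

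In the release machinery, unc-13 (chromosome 4, 867824–912331), whose product makes vesicles ready for fusion, summed to 73841 and 67634 normalized counts, against 99719 and 73558 in +/SPG-GAL4 and 82601 and 77708 in +/TraF brains (log2 fold change -0.24, SE 0.16). unc-13-RD, the transcript with the distal 3′ end, had 12127 and 10779, against 16794 and 13415 in +/SPG-GAL4 and 15874 and 15076 in +/TraF brains. Both feminized libraries were below the controls, by a log2 fold change of -0.42 (SE 0.11). unc-13-RA encodes the same protein of 2871 codons with the proximal 3′ end. The 2 most abundant transcripts did not share one pattern. unc-13-RE had 34685 and 31684, against 42923 and 32623 in +/SPG-GAL4 and 38010 and 33999 in +/TraF brains, which overlap. unc-13-RC had 15329 and 14924, against 24242 and 17367 in +/SPG-GAL4 and 16673 and 17013 in +/TraF brains, below each control. RE and RC hold no nucleotide or splice junction of their own.

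Rab3-GEF (X, 15089682–15113762), the exchange factor for Rab3, summed to 14433 and 13650 normalized counts, against 18895 and 13961 in +/SPG-GAL4 and 14665 and 14481 in +/TraF brains (log2 fold change -0.15, SE 0.16). Rab3-GEF-RG had 63.3 and 70.2, against 234.5 and 129.3 in +/SPG-GAL4 and 233.8 and 147.9 in +/TraF brains (log2 fold change -1.48, SE 0.34). It encodes 1819 codons and has an exon of 207 nt (15110464–15110670). RF and RL hold the same stretch in a longer exon that ends at 15110699, so only the end at 15110670 is particular to RG. The feminized libraries were alike and below all controls.

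Of the other Rab3-GEF transcripts, RK and RL had shares outside the range of the controls in both feminized libraries, while RJ overlapped with them. RK, RL and RJ hold no nucleotide or splice junction of their own. Rab3-GEF-RK held 36.8% and 33.0% of the gene in SPG-GAL4/UAS-TraF brains, against 43.9% and 46.1% in +/SPG-GAL4 and 48.9% and 41.5% in +/TraF brains. The early-ending Rab3-GEF-RL held 10.2% and 11.2%, against 6.87% and 5.36% in +/SPG-GAL4 and 5.96% and 7.79% in +/TraF brains. Rab3-GEF-RJ held 26.5% and 27.3%, against 26.5% and 21.7% in +/SPG-GAL4 and 21.3% and 25.6% in +/TraF brains. Rab3-GEF-RF was at 0 in both SPG-GAL4/UAS-TraF libraries and in +/TraF replicate 1, with 527.6 normalized counts in +/SPG-GAL4 replicate 2, 20.7 in replicate 1 and 89.3 in +/TraF replicate 2.

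**Figure D2:**
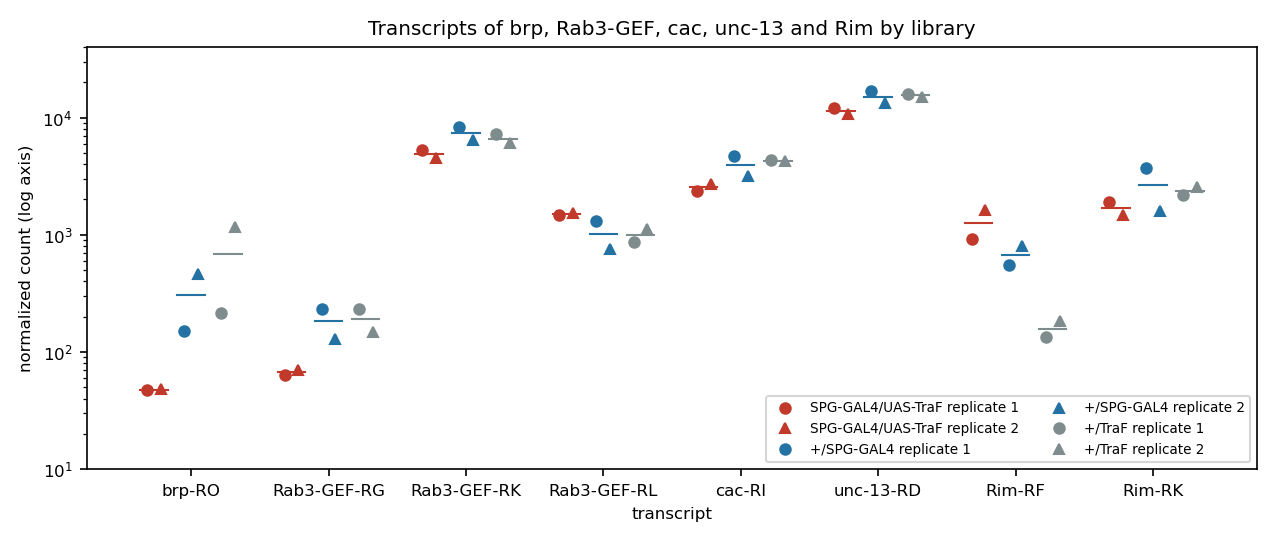
Normalized counts (log axis) of 8 transcripts in each library, with lines at the mean of each genotype. brp-RO, Rab3-GEF-RG, Rab3-GEF-RK, cac-RI and unc-13-RD are lower in both SPG-GAL4/UAS-TraF libraries than in every control, Rab3-GEF-RL and Rim-RF higher, and Rim-RK overlaps.

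Over all 9 genes, both SPG-GAL4/UAS-TraF libraries lay below the 4 controls in 11 of the 64 tested transcripts (17.2%) and above them in 2 (3.12%). Across the table this held for 8.36% and 6.52% of tested transcripts. The 11 include Liprin-gamma-RA and -RB, brp-RO, Rab3-GEF-RG, cac-RI and unc-13-RD, transcripts of the genes whose values in this comparison led to the choice. The 17.2% thus follows in part from that choice and cannot be set against the 8.36%. The median log2 fold change of the 64 transcripts was -0.02, and that of all tested transcripts -0.02. At the level of gene sums, 0 of 9777 genes (0.0%) passed the threshold in edgeR, and DESeq2 called 24 genes but none of the 9. The medians were -0.08 for the 9 genes and -0.01 for all genes.

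Levels of different genes were compared as normalized counts per kb of transcript over the 4 controls, as mean ± SD. unc-13 was the most abundant with 7940 ± 1122 (SD, n = 4), and brp (3537 ± 844.4) and Liprin-gamma (3314 ± 353.4) followed without differing beyond their spread. Lar (2088 ± 382.5), Rab3-GEF (1899 ± 274.9), Rim (1693 ± 368.7) and cac (1653 ± 371.6) followed, and neighbours in this order differed by less than their SD, although the order was the same in each of the 4 controls. Liprin-alpha (929.1 ± 120.2) and Liprin-beta (436.1 ± 24.6) were the lowest. In SPG-GAL4/UAS-TraF brains the means were 6755 for unc-13, 3438 for brp, 3394 for Liprin-gamma and 434.0 for Liprin-beta.

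**Figure D3:**
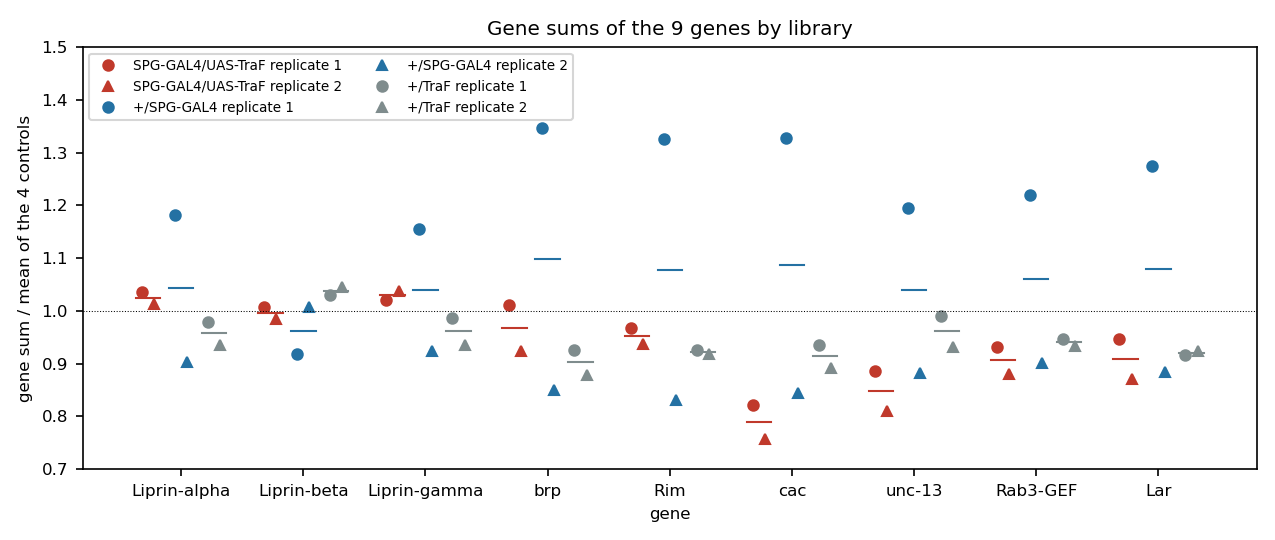
Gene sums of each library divided by the mean of the 4 controls, with lines at the mean of each genotype. +/SPG-GAL4 replicate 1 is the highest library in all genes but Liprin-beta. Of the genes shown, only cac has both SPG-GAL4/UAS-TraF libraries below every control, and how often this holds over all gene sums was not computed.

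The comparison of the 2 control genotypes asked how far the driver and the transgene strains differ on their own. Across gene sums 21 of 9777 genes (0.215%) passed the threshold, and none of the 9 did, with edgeR adjusted p between 0.666 and 0.768. Without adjustment, p was below 0.05 for 754 genes (7.71%) but for none of the 9. DESeq2 called 95 of 10038 genes (0.946%) and none of the 9. The log2 fold changes of +/SPG-GAL4 over +/TraF were positive in 8 of the 9 genes, with a median of 0.21 against 0.01 for all genes. They were 0.32 (SE 0.23) for brp, 0.29 (SE 0.22) for cac, 0.27 (SE 0.19) for Lar and -0.08 (SE 0.07) for Liprin-beta.

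Of the 2 driver libraries, +/SPG-GAL4 replicate 1 was the highest of the 6 libraries in 8 of the 9 genes and in 45 of the 64 transcripts. The share of all genes and transcripts highest in this library was not computed, so these counts do not set the 9 genes apart. Without +/SPG-GAL4 replicate 2, which leaves replicate 1 alone for its genotype, 8 of the 9 genes passed the threshold, among 3856 of 10049 genes (38.4%). Without replicate 1 none passed, and the log2 fold changes of all 9 genes lay between -0.153 and -0.046. With the length trend removed from each library they lay between -0.11 and 0.07. The 8 genes other than Liprin-beta have mean transcript lengths of 4653 nt (Liprin-gamma) to 10612 nt (unc-13), against 2783 nt for Liprin-beta.

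Among single transcripts 8 of 21208 (0.0377%) passed between the control genotypes and none belonged to the 9 genes. An unadjusted p below 0.05 was reached by 1567 transcripts (7.39%) and by 5 of the 64, namely Rim-RF, brp-RD, brp-RK, cac-RE and cac-RP. DESeq2 called 550 of 22158 transcripts (2.48%), of the 64 only Rim-RF. In the usage test 238 of 5109 genes (4.66%) passed and none of the 9, with edgeR adjusted p between 0.412 for Rim and 1.0. An unadjusted p below 0.05 was reached by 657 genes (12.9%) and by none of the 9. Without +/SPG-GAL4 replicate 1 the usage of Rim passed, and without replicate 2 that of unc-13.

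Transcripts of 8 of the genes end at more than 1 annotated 3′ end. The share of the most distal end, looked at after the values were seen, was lower in both +/SPG-GAL4 than in both +/TraF libraries in 7 of the 8 genes, and in none was it higher. Over the 2649 genes with several 3′ ends and at least 100 counts in each library, the share was lower in 36.5% and higher in 10.2%. In Lar it was 71.2% and 68.9% in +/SPG-GAL4, against 76.9% and 74.9% in +/TraF brains, and in brp it was 66.7% and 68.3% against 74.0% and 72.6%. The exception was Rab3-GEF, whose most distal end at 15113762 lies close to the next at 15113744, with 70.4% and 67.8% against 70.1% and 67.1%. The median difference was -4.03 percentage points for the 8 genes and -1.12 over all such genes. In SPG-GAL4/UAS-TraF brains the share of Lar was 69.0% and 67.6% and that of brp 66.4% and 65.2%, nearer to the driver control. For Rab3-GEF it was 63.3% and 60.4%, below all 4 controls.

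**Figure D4:**
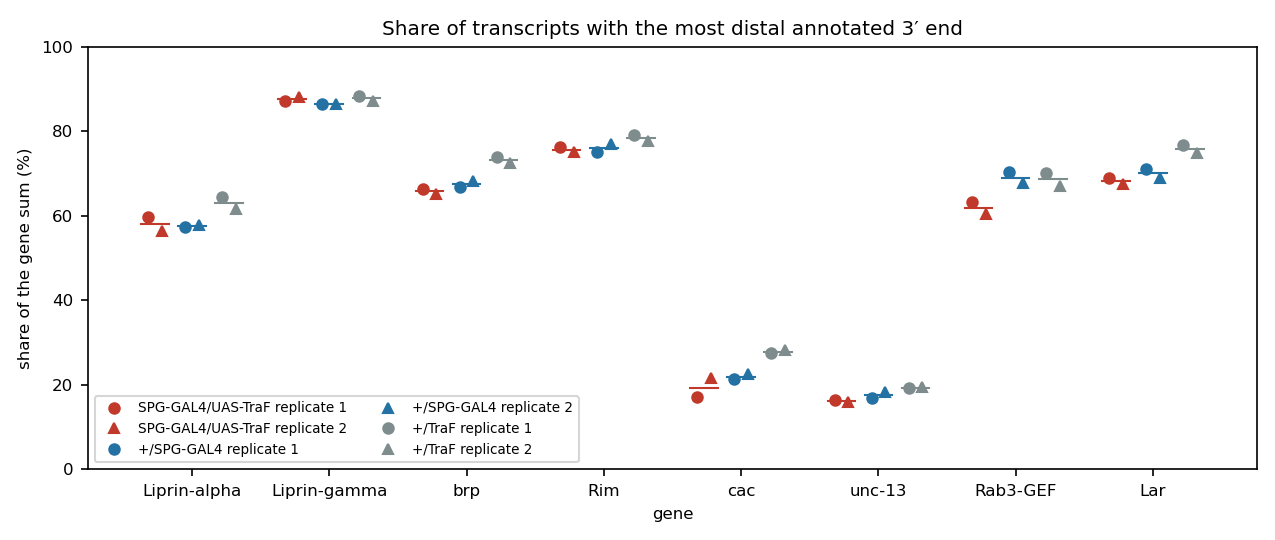
Share of each gene's counts in transcripts with the most distal annotated 3′ end, per library, with lines at the mean of each genotype. Both +/TraF libraries lie above both +/SPG-GAL4 libraries in all genes shown but Rab3-GEF.

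Partners of these proteins were followed at the level of gene sums in a list of 31 genes, all of which could be tested: 21 of the active zone and of vesicle release, 5 partners and ligands of Lar, and 5 other receptor tyrosine phosphatases. In SPG-GAL4/UAS-TraF against control brains none passed the threshold in edgeR or in DESeq2, and only dlp reached 0.05 before adjustment in edgeR. The share of all genes that reached 0.05 in this comparison was not computed, so this does not set dlp apart. The median log2 fold change of the 31 was 0.02, against -0.01 for all genes, with 18 positive and 13 negative. dlp, a glypican ligand of Lar, had 1012 and 1067 normalized counts, against 909.5 and 878.0 in +/SPG-GAL4 and 962.4 and 942.9 in +/TraF brains (log2 fold change 0.17, SE 0.07, edgeR adjusted p = 0.999). Both feminized libraries were above the controls, an order whose share over all gene sums was not computed.

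The largest differences of the list were those of Nlg1, stj and Syx1A. Nlg1, a neuroligin, had 19.2 and 24.4 normalized counts, against 48.0 and 29.7 in +/SPG-GAL4 and 36.4 and 26.8 in +/TraF brains (log2 fold change -0.69, SE 0.32, edgeR adjusted p = 0.999). stj, the alpha2delta subunit that accompanies the Cacophony channel, had 7262 and 6883, against 11415 and 7125 in +/SPG-GAL4 and 8188 and 8685 in +/TraF brains (log2 fold change -0.33, SE 0.20, edgeR adjusted p = 0.999). Syx1A, the plasma membrane syntaxin of vesicle fusion, had 20137 and 19644, against 20975 and 13674 in +/SPG-GAL4 and 15679 and 14103 in +/TraF brains (log2 fold change 0.30, SE 0.19, edgeR adjusted p = 0.999). Nlg1 was lowest in the feminized libraries, an order whose share over all gene sums was not computed, while stj and Syx1A overlapped with a control. Without +/SPG-GAL4 replicate 1, Nlg4, another neuroligin, and Syx1A passed the threshold, among 240 of 9763 genes.

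Between the control genotypes none of the 31 passed in edgeR or DESeq2, and none reached 0.05 before adjustment. Their median log2 fold change of 0.19 became 0.01 with the length trend removed. In +/SPG-GAL4 replicate 1, 23 of the 31 were highest, a share not computed over all genes. The largest were Ptp52F (-0.86, SE 0.70), Nlg1 (0.33, SE 0.35) and Spn (0.28, SE 0.17).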

How the data were processed

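Poly-A RNA of whole male brains was sequenced in 6 libraries (TruSeq RNA v1, paired-end). The authors quantified transcripts with Kallisto and deposited the estimated counts per transcript as whole numbers, with no normalization; the Kallisto version and the reference release are not given in the sources used here. Kallisto shares out reads that fit several transcripts, and 50 of the 71 transcripts hold no nucleotide of their own, 36 neither a nucleotide nor a splice junction, and 8 the same exons as another, so single counts are less precise than they look. No uncertainty of this estimation entered the tests. Of 28071 transcript identifiers, 28061 matched the Ensembl annotation of BDGP6.54; 12 further annotated transcripts of the 9 genes were not analysed here.

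Counts were tested in R 4.3.3 with edgeR 4.0.16 (quasi-likelihood, TMM, default filter on low counts, prior count 0.125, Benjamini-Hochberg over all features, threshold 0.1), on transcripts, on sums per gene and, with diffSpliceDGE, on transcript usage. The 4 controls formed 1 group against SPG-GAL4/UAS-TraF, as in the study; the control genotypes were compared in a fit with 3 genotypes. Alternatives used DESeq2 1.42.0, limma 3.58.1, other filters and scalings, a replicate block, removal of the length trend and leaving out each library. The fits were also run on simulated counts with known changes. Those counts had the same spread for every feature and no outlying library or length trend, so they do not show how the fits behave on these libraries.

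The members, the partner and marker lists and the tests were chosen with earlier results of these data known. Named were all gene sums, all Liprin-gamma transcripts, the transcripts on the study's list of changes, the 2 most abundant transcripts of each gene and the 2 with the largest difference in share, and from the partner list the 3 largest changes. Others, such as brp-RH, brp-RQ, cac-RG, cac-RH, Lar-RB, Rim-RK and Rab3-GEF-RF, were added once their values had been seen. The labels call the libraries biological replicates but give no separate cultures, so p-values measure only the spread between these libraries. With 2 replicates that spread limits the precision.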

Additional observations from a re-analysis of the deposited data

Results flagged for a closer look

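Within the 4 control libraries, 7 of 38 series of values (the 9 gene sums and the named transcripts) held a library far from the other 3, by the gap to its neighbour as a share of the whole range, and in all 7 it was +/SPG-GAL4 replicate 1 as the highest. Chance flags about 1 in 20 series when each is drawn from a single normal distribution. Here the series share the same libraries, the gene sums contain the named transcripts, and each series pools both control genotypes. The number of flags therefore cannot be set against that rate. The share was 0.845 for the brp sum, 0.857 for the Rab3-GEF sum and 0.9 for the Lar sum. Among transcripts it was 0.847 for Liprin-alpha-RD, 0.872 for Liprin-gamma-RC, 0.848 for brp-RR and 0.908 for unc-13-RC. The same library departs from the others by gene length, and the part of this in the values was not tested.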

How the results depend on the processing

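In feminized against control brains, 1 transcript of the 9 genes passed the threshold (6 with DESeq2, and 0 to 1 when 1 library was left out), and 1 gene in the usage test (2 with the 3-genotype fit and 1 to 4 when 1 library was left out). Of 406 fold changes of named transcripts under the alternatives 403 moved by less than the spread of the controls, and 126 of 126 for the gene sums. The 3 other transcript values were those of Liprin-gamma-RA, with -3.15 in limma and -4.07 to -2.22 when 1 library was left out. That spread is itself widened by +/SPG-GAL4 replicate 1. Without this library the gene sums of brp, Rim and Lar changed sign, to log2 fold changes of 0.154, 0.121 and 0.026, while the other genes kept theirs. The partner list gave 0 calls, and 0 to 2 when 1 library was left out. Between the controls 0 transcripts passed, with 1 in DESeq2 and 0 to 6 when 1 library was left out. No gene sum passed, with 0 to 8 when 1 library was left out; usage gave 0 genes and 0 to 1, and the partner list 0 and 0 to 23. The 6 transcripts, 8 gene sums and 23 partner genes between the controls came without +/SPG-GAL4 replicate 2. Without replicate 1 of that genotype came the 2 partner genes and the 4 genes by usage (Liprin-gamma, brp, unc-13 and Rab3-GEF) in feminized against control brains. A genotype left with 1 library is assumed to vary like the others.

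Over the whole table, the calls in feminized against control brains were 3 transcripts in edgeR, with 0 (without SPG-GAL4/UAS-TraF replicate 1 or 2) to 280 (DESeq2) over the alternatives, and between the controls 8, with 0 (replicate block, or without +/SPG-GAL4 replicate 1 or +/TraF replicate 1) to 550 (DESeq2), and 511 without +/SPG-GAL4 replicate 2. For gene sums between the controls they were 21, with 6 (without +/TraF replicate 1) to 3856 (without +/SPG-GAL4 replicate 2), 95 in DESeq2 and 87 with the replicate block, and in feminized against control brains 0, with up to 240 (without +/SPG-GAL4 replicate 1). For usage they were 67 in feminized against control brains, with 19 (at least 10 counts in every library) to 182 (without +/SPG-GAL4 replicate 1), and 238 between the controls, with 108 (without +/TraF replicate 1) to 498 (without +/SPG-GAL4 replicate 2).

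The sign of the gene sums between the controls changed without +/SPG-GAL4 replicate 1 in 8 of the 9 genes, and Liprin-beta stayed negative (-0.108 to -0.046). The log2 fold changes of the 8 ranged over -0.087 to 0.374 for Liprin-alpha, -0.061 to 0.333 for Liprin-gamma, -0.091 to 0.646 for brp, -0.153 to 0.593 for Rim, -0.119 to 0.608 for cac, -0.127 to 0.384 for unc-13, -0.065 to 0.444 for Rab3-GEF and -0.060 to 0.540 for Lar. With the length trend removed, unc-13 had -0.089 and Rab3-GEF -0.001; the cause was not tested.

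Same-numbered libraries did not deviate together over all transcripts (correlations of 0.00192, -0.0199 and 0.0414). Such correlations cannot exclude a shared batch, and in the paper every sitting included all genotypes in equal numbers. Whether the numbers pair the libraries therefore stays unknown. With the replicate block the usage test in feminized against control brains gave 2 of the 9 genes, Liprin-gamma and Rab3-GEF, and the block gave 1 transcript and 0 gene sums, and 0 of each between the controls. Shares of counts per transcript length instead of counts moved by more than the spread of a genotype in 39 of 87 cases. For RA and RB of Liprin-gamma among transcripts with the long end, an alternative chosen after the data were seen, they were 0.892% in SPG-GAL4/UAS-TraF, 8.16% in +/SPG-GAL4 and 8.85% in +/TraF brains.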
